A study of Mus musculus with 11 samples.

Results

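The 10 genes described here form the presentation machinery of major histocompatibility complex (MHC) class II in the mouse. They were taken by symbol (H2-Aa, H2-Ab1, H2-Eb1, Cd74, Ciita, H2-DMa, H2-DMb1, H2-DMb2, H2-Oa and H2-Ob) from a table of 21860 genes, and each of the 10 was found once and passed the filter on low values in all 11 samples.

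MHC class II molecules are dimers of an α and a β chain that display peptides from endocytosed proteins to CD4+ T cells. H2-Aa and H2-Ab1 encode the 2 chains of the I-A molecule and H2-Eb1 encodes the β chain of I-E. New dimers are held by the invariant chain, Cd74, which guides them to endosomes, where its last fragment, CLIP, is exchanged for peptide by H2-M (H2-DMa with H2-DMb1 or H2-DMb2). H2-O (H2-Oa with H2-Ob) is an inhibitor of H2-M known best from B cells and some dendritic cells. Ciita is the coactivator on which transcription of the other members depends in large part. It binds no DNA itself and acts through factors bound to conserved boxes, named X and Y, upstream of class II genes. Langerhans cells, the macrophage-derived dendritic-like cells of the epidermis, carry class II molecules and raise them at their surface when they mature.

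Bulk RNA sequencing was performed on mouse bone marrow monocytes cultured with GM-CSF (20 ng/ml) and harvested on day 6, when CD11b-low EpCAM+ cells, the monocyte-derived Langerhans cell-like (mLC-like) cells of the study, were sorted. One sample received GM-CSF and Jag1 and none of the other agents (Jag1 only, n = 1). The other 4 groups also received TGFβ (5 ng/ml) and IL-34 (8 µg/ml), either without a further agent (TGFβ/IL-34, n = 2), with FICZ (TGFβ/IL-34/FICZ, n = 2), with Jag1 (TGFβ/IL-34/Jag1, n = 3) or with both (TGFβ/IL-34/Jag1/FICZ, n = 3). Jag1 is a Notch ligand, presented here by OP9-Jag1 stromal cells. FICZ is a ligand of the aryl hydrocarbon receptor (Ahr), called an agonist in the study's text and an antagonist in its design summary, and its dose is not given in the sources used here. The labels name OP9 coculture for all samples, although the sample codes and the study's scheme place stroma only in the Jag1 cultures, so that Jag1 and the presence of OP9 cells cannot be told apart. Replicates came from experiments coded AA45, AA47 and AA48, and the labels do not say whether these used separate animals, so p-values measure the spread between these samples. Whether the sort also required MHCII is not given in the sources used here. In bulk RNA, fewer class II-expressing cells and less class II RNA per cell cannot be told apart.

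The X and Y boxes are shown here because they are the sequence feature that ties class II genes to Ciita. Of the members, 8 lie in the MHC region of chromosome 17 (GRCm39, GENCODE vM39), with other genes between some of them, from H2-Oa (chr17:34311314-34314328, + strand) through H2-DMa, H2-DMb2, H2-DMb1, H2-Ob, H2-Ab1 and H2-Aa (chr17:34493404-34506798, − strand) to H2-Eb1 (chr17:34504236-34535648, + strand). Ciita lies on chromosome 16 (chr16:10297923-10347694, + strand), and Cd74 on neither of these chromosomes. The 250 bases before the canonical start of 21757 protein-coding genes were searched on both strands for GNNACNNAT, letters of the X box, and GATTGG, those of the Y box. The X letters were present in 21.8% of all windows and in 6 of the 10 members, and the Y letters in 16.3% and in 6. An X match followed on the gene's strand by a Y match starting 20 to 45 bases after it was found in 0.161% of all windows (35) and in 4 members. Those of 3 of these genes are given 5′ to 3′ with 5 bases on either side (that of H2-DMa falls in an exon of another of its transcripts), and capitals mark the matched X letters, then the matched Y letters.
H2-Ab1: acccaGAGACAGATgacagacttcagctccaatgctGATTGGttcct
H2-Eb1: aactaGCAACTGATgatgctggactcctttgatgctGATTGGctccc
H2-Ob: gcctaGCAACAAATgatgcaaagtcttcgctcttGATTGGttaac
They lie on the + strand at chr17:34482119-34482165 (H2-Ab1), chr17:34524745-34524791 (H2-Eb1) and chr17:34457787-34457831 (H2-Ob), upstream of the first exon of the canonical transcript. The distance from the first X letter to the first Y letter was 31 bases in H2-Ab1 and H2-Eb1, 32 in H2-DMa and 29 in H2-Ob. In H2-Ab1 a second X match, on the other strand, overlapped the Y letters. H2-Aa and H2-DMb2 held the Y letters alone, H2-Oa (on its own strand) and Cd74 (on the other) the X letters alone, and neither H2-DMb1 nor Ciita held either in this window. A search for exact letters in a fixed window can miss a box that differs from them or lies elsewhere, so a missing match does not show a missing box.

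Totals ran from 21.3 to 27.8 M normalized counts per sample (counts divided by the authors' size factors), and the lowest value of any member was 717. The TGFβ/IL-34/FICZ libraries stood apart from each other: their median difference over the 13095 genes tested was 0.72 on the log2 scale, against 0.16 between the TGFβ/IL-34 libraries. They were made in different experiments, as were the TGFβ/IL-34 libraries, and read on different flow cells. The TGFβ/IL-34/Jag1/FICZ libraries, also from different experiments and flow cells, had a median range of 0.33 over 3 samples. Because all groups share one estimate of the spread, counts are given below also with both TGFβ/IL-34/FICZ samples left out. Epcam, the gene of the sorted protein, was at 657 in the Jag1 only sample and averaged 4878 to 11190 in the other groups.

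Class II transcripts were among the most abundant in these cells (see the plot of member values by sample). Cd74 ranked first or second of all genes in 10 samples and seventh in the Jag1 only sample. Together the 10 genes took 5.38% ± 0.519 (SD, n = 3) of all normalized counts in TGFβ/IL-34/Jag1, 4.57% ± 0.544 (n = 2) in TGFβ/IL-34, 3.54% ± 0.656 (n = 2) in TGFβ/IL-34/FICZ, 2.43% ± 0.360 (n = 3) in TGFβ/IL-34/Jag1/FICZ and 1.80% in Jag1 only. The range in TGFβ/IL-34/Jag1/FICZ (2.19% to 2.84%) lay below that of the other groups with TGFβ and IL-34. Per kb of merged exon length, mean levels in TGFβ/IL-34/Jag1 were 196224 for Cd74, 104692 for H2-Ab1, 84417 for H2-Eb1 and 42562 for H2-Aa, between 3281 and 8033 for the H2-M genes, and 2270, 2149 and 1220 for H2-Oa, Ciita and H2-Ob. With the length of the canonical transcript instead, H2-Aa (161948) stood above H2-Eb1 (129138) and H2-DMa (12347) above both H2-DMb genes, so the order within a complex depends on the length used. The order from invariant chain and chains to H2-M and then to H2-O and Ciita held with both.

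**Figure D1:**
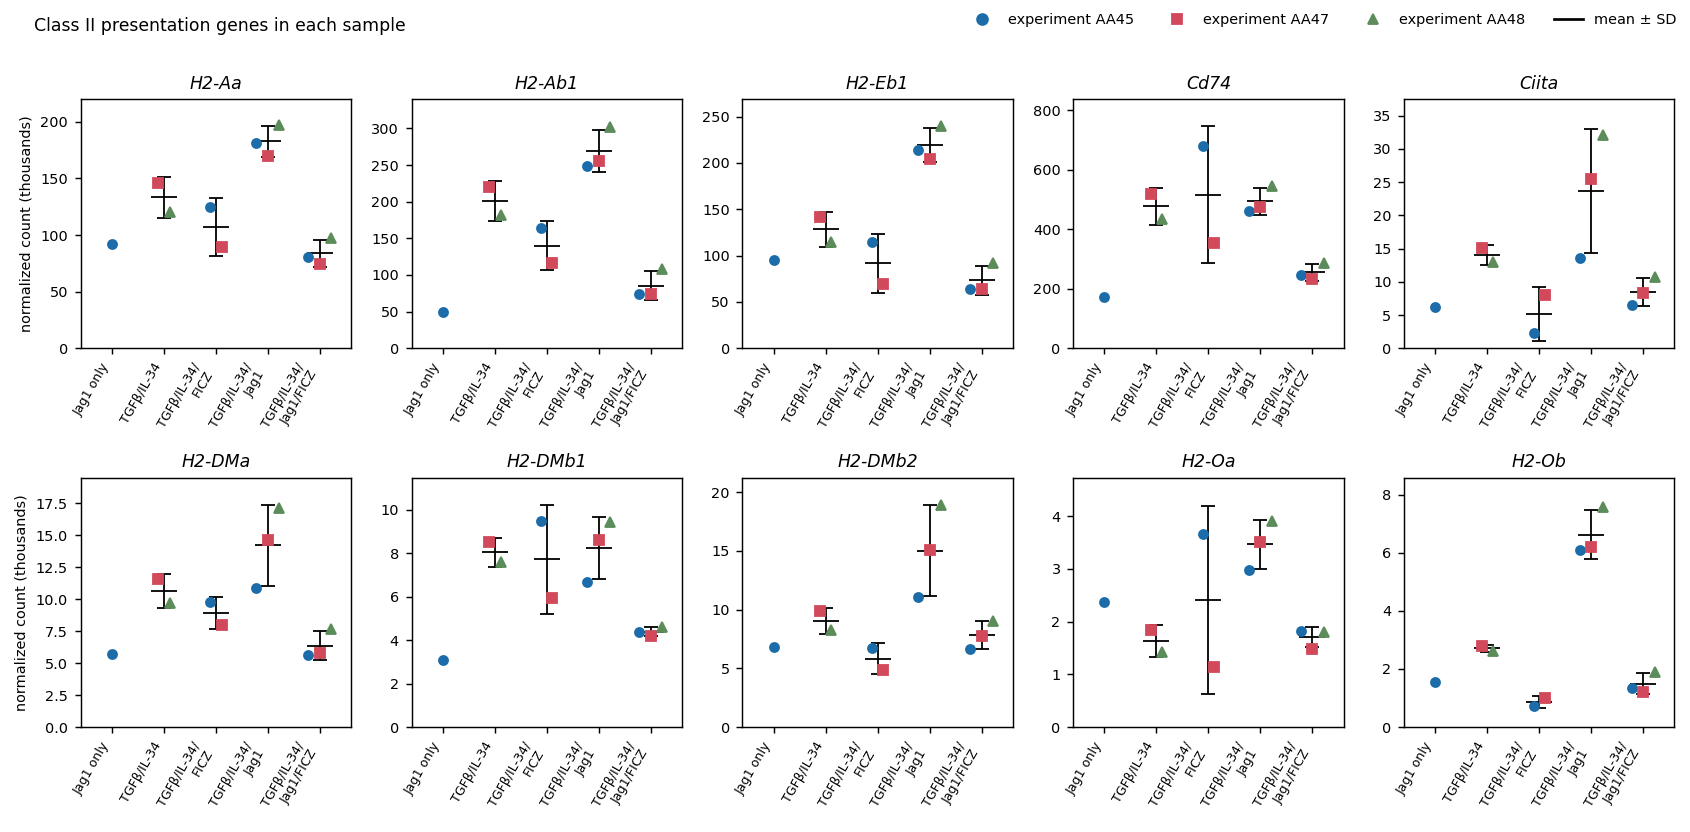
Normalized counts (scaled as the axis labels state, axes from 0) of the 10 class II presentation genes in each of 11 samples, by culture group. Symbols mark the experiment and bars the mean ± SD of groups with more than 1 sample. For all 10 genes the TGFβ/IL-34/Jag1/FICZ samples sit below every TGFβ/IL-34/Jag1 sample, and the TGFβ/IL-34/FICZ pair is far apart for Ciita (2247 and 8069) and H2-Oa (3667 and 1145).

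To ask what Ahr ligation did to this machinery in the presence of Jag1, TGFβ/IL-34/Jag1/FICZ was compared with TGFβ/IL-34/Jag1. All 10 genes were lower with FICZ and in none did the samples of the groups overlap, as was so for 21.5% of all genes tested in this direction. By the test, 7 fell (limma, adjusted p under 0.05 over all genes): the chain genes H2-Ab1, H2-Eb1 and H2-Aa, the H2-M genes H2-DMa, H2-DMb1 and H2-DMb2, and H2-Ob. Of all genes tested, 6.71% fell in this comparison. The median log2 fold change was −1.14 over the members and −0.01 over all genes. Cd74, Ciita and H2-Oa missed the threshold in the fit of all samples, with adjusted p-values of 0.0670, 0.0518 and 0.0695. With both TGFβ/IL-34/FICZ samples left out, 10 of 10 fell, against 13.9% of all genes in that fit. With single samples of this comparison left out the count ran from 5 (replicate 2 with FICZ left out, where 3.47% of all genes fell) to 8. Within the experiments, each of which holds a sample of both groups, 10 of 10 members were lower in AA45, AA47 and AA48 alike, with medians of −1.01, −1.29 and −1.14. In AA45 the samples with FICZ were read on another flow cell than those without, so FICZ and flow cell cannot be told apart there. In AA47 and AA48 all samples were read on the same flow cell.

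**Figure D2:**
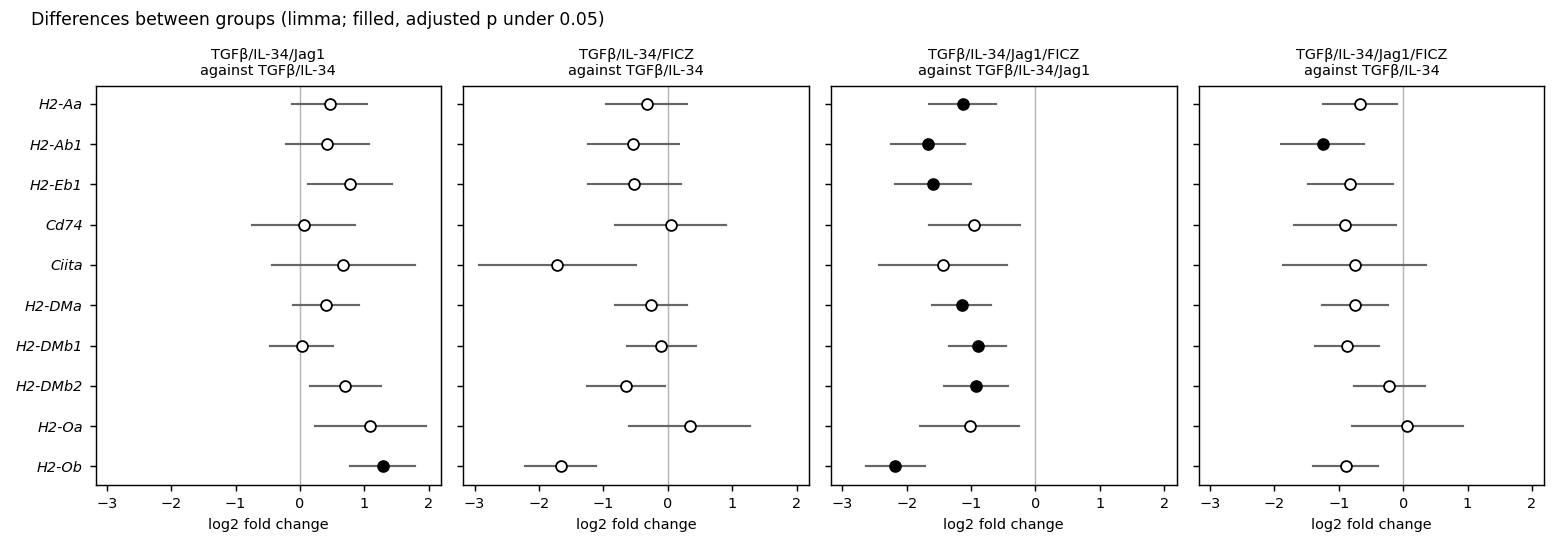
Log2 fold changes (points) with 95% confidence intervals (lines) from limma for the 10 genes in 4 comparisons, with filled points where the adjusted p was under 0.05. FICZ added to TGFβ/IL-34/Jag1 (the third panel) puts all points left of 0, from −2.18 for H2-Ob to −0.90 for H2-DMb1, 7 of them filled.

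**Figure D3:**
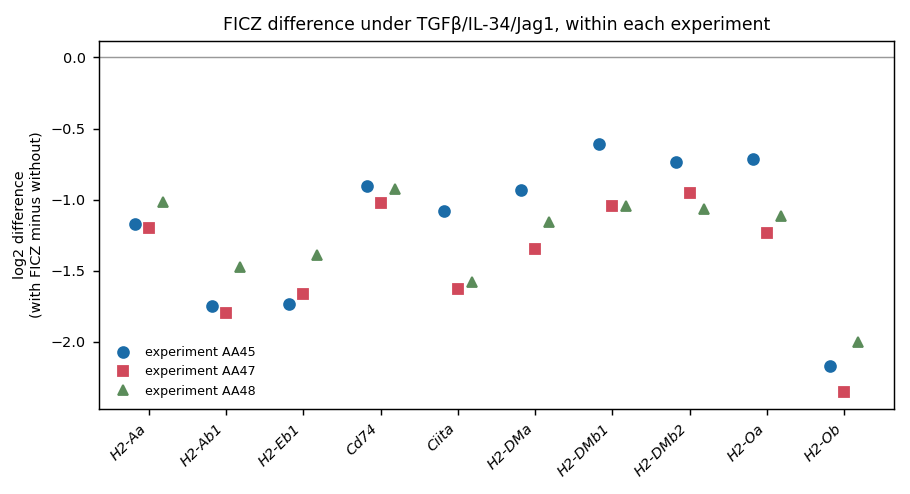
Log2 difference between the TGFβ/IL-34/Jag1/FICZ and the TGFβ/IL-34/Jag1 sample of each experiment, by gene. All 30 points lie below 0, between −2.36 (H2-Ob, AA47) and −0.61 (H2-DMb1, AA45), and H2-Ob is lowest in each experiment. The samples of AA45 were read on different flow cells.

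Ciita, the coactivator, varied most among the members, with a 14.3-fold range over the 11 samples. It was at 13607, 25549 and 32032 in TGFβ/IL-34/Jag1, at 6444, 8277 and 10688 in TGFβ/IL-34/Jag1/FICZ, at 15072 and 12989 in TGFβ/IL-34, at 2247 and 8069 in TGFβ/IL-34/FICZ and at 6240 in Jag1 only. Both FICZ groups thus lay below both groups that had TGFβ and IL-34 without FICZ, while the latter overlapped each other. The log2 fold change for FICZ was −1.43 ± 0.447 (SE, adjusted p = 0.0518) with Jag1 and −1.72 ± 0.547 (adjusted p = 0.285) without it. The first passed when the replicate number was added as a block (adjusted p = 0.0216). This number pairs samples of one experiment in the groups of that comparison, but not in TGFβ/IL-34. With the experiment code as the block the first also passed (adjusted p = 0.00581, and 0.0227 with the codes of the authors' file). Over all alternatives the adjusted p for FICZ with Jag1 ran from 0.000757 to 0.172. For Jag1 without FICZ the change was 0.67 (95% interval −0.44 to 1.79, adjusted p = 0.554), with replicate 1 of TGFβ/IL-34/Jag1 at the level of the TGFβ/IL-34 samples. The annotation gives Ciita several starts, which the table sums to 1 value.

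Of the I-A chains, H2-Ab1, the β chain, was at 248595, 256212 and 301740 in TGFβ/IL-34/Jag1, at 73968, 73804 and 108347 in TGFβ/IL-34/Jag1/FICZ, at 220556 and 181376 in TGFβ/IL-34, at 163865 and 116058 in TGFβ/IL-34/FICZ and at 49281 in Jag1 only. Each of these groups was separate from the next, and the FICZ change with Jag1 was −1.67 ± 0.259 (adjusted p = 0.00156), a 3.19-fold fall. H2-Ab1 was also the member that fell when Jag1 and FICZ were added together to TGFβ/IL-34 (−1.25 ± 0.289, adjusted p = 0.0395). H2-Aa, the α chain, was at 181056, 169799 and 197176 in TGFβ/IL-34/Jag1 and at 80268, 74065 and 97459 with FICZ, a change of −1.13 ± 0.233 (adjusted p = 0.00744). It was at 146267 and 120406 in TGFβ/IL-34, 125175 and 89087 in TGFβ/IL-34/FICZ and 92192 in Jag1 only, which is within the range of the FICZ samples. Under quantile normalization the FICZ change of H2-Aa with Jag1 was −0.56 and missed the threshold (adjusted p = 0.0711, the highest of its alternatives, against 0.000438 for the lowest).

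H2-Eb1, the I-E β chain, followed H2-Aa (Pearson r = 0.985 over the 11 samples, a description, since samples share groups). It was at 213662, 204278 and 239502 in TGFβ/IL-34/Jag1 and at 64261, 64401 and 91600 with FICZ, a change of −1.60 ± 0.264 (adjusted p = 0.00224), and at 141970 and 114940 in TGFβ/IL-34. With FICZ and no Jag1 it was at 114466 and 69488, the second within the range of TGFβ/IL-34/Jag1/FICZ, and in Jag1 only it was at 95565. H2-Ea, its α partner, was listed at 0 in all 11 samples. The annotated extents of H2-Aa and H2-Eb1 overlap on opposite strands, and whether quantification used strand is not given in the sources used here, so reads of the shared stretch may be divided between them.

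Cd74, the invariant chain, overlapped between TGFβ/IL-34 and TGFβ/IL-34/Jag1. It was at 172658 in Jag1 only, below the 10 other samples, at 519286 and 433001 in TGFβ/IL-34, at 462235, 472696 and 545577 in TGFβ/IL-34/Jag1 and at 246542, 232827 and 287601 in TGFβ/IL-34/Jag1/FICZ. In TGFβ/IL-34/FICZ it was at 677490, its highest value, and 352443. The change for Jag1 was 0.05 ± 0.356 (95% interval −0.74 to 0.85, adjusted p = 0.964), and that for FICZ with Jag1 was −0.95 ± 0.319 (adjusted p = 0.0670, from 0.00418 to 0.739 over the alternatives). The upper bound is from quantile normalization, which gives the top genes of each sample the same values by construction.

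The H2-M genes fell together with FICZ under Jag1. H2-DMa, the α chain, was at 10831, 14655 and 17148 in TGFβ/IL-34/Jag1 and at 5670, 5768 and 7683 with FICZ, a change of −1.15 ± 0.206 (adjusted p = 0.00364). H2-DMb1, a β chain, was at 6675, 8632 and 9453 and, with FICZ, at 4383, 4178 and 4585 (−0.90 ± 0.199, adjusted p = 0.0107). H2-DMb2, the second β chain, was at 11091, 15046 and 18858 and, with FICZ, at 6650, 7774 and 9003 (−0.92 ± 0.223, adjusted p = 0.0170). In all 3 genes the lowest TGFβ/IL-34/Jag1 value came from AA45, so that the groups were closest in that experiment. Leaving out replicate 2 of TGFβ/IL-34/Jag1/FICZ lost the calls of H2-DMb1 (adjusted p = 0.0512) and H2-DMb2 (0.0628). That of H2-DMb2 was also lost without replicate 1 of that group (0.0810) and, among the samples with Jag1 and no FICZ, without replicate 2 (0.0557) or 3 (0.0656), while its lowest value over all alternatives was 0.000918 and that of H2-DMb1 was 0.000122. The β genes are near-identical copies whose reads quantification may divide.

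Without Jag1 and with TGFβ and IL-34, the H2-M genes were at 11562 and 9718 (H2-DMa), 8527 and 7582 (H2-DMb1) and 9843 and 8249 (H2-DMb2). With FICZ they were at 9808 and 8008, at 9504 and 5942 and at 6739 and 4888, so that the groups overlapped for H2-DMa and H2-DMb1 and did not for H2-DMb2. In Jag1 only the values were 5697, 3075 and 6830, and H2-DMb1 had its lowest value of all samples there.

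The H2-O genes encode the inhibitor of H2-M. H2-Ob, the β chain, was at 6096, 6198 and 7579 in TGFβ/IL-34/Jag1, 2796 and 2617 in TGFβ/IL-34, 1354, 1210 and 1893 in TGFβ/IL-34/Jag1/FICZ, 1555 in Jag1 only and 717 and 1017 in TGFβ/IL-34/FICZ. These 4 groups with TGFβ and IL-34 did not overlap, and the Jag1 only sample lay within TGFβ/IL-34/Jag1/FICZ. H2-Ob was the member that rose with Jag1 (1.28 ± 0.227, adjusted p = 0.00809, a 2.44-fold rise), and its fall with FICZ under Jag1 was the largest of the 10 (−2.18 ± 0.203, adjusted p = 9.88e-05, a 4.52-fold fall). FICZ without Jag1 gave −1.66 ± 0.249, with an adjusted p of 0.0815. H2-Oa, the α chain, was at 2987, 3500 and 3910 in TGFβ/IL-34/Jag1 and at 1818, 1487 and 1803 with FICZ (−1.02 ± 0.346, adjusted p = 0.0695, from 0.000828 to 0.212 over the alternatives). It was at 1846 and 1419 in TGFβ/IL-34 and 2363 in Jag1 only, and its TGFβ/IL-34/FICZ values, 3667 and 1145, lay on either side of both.

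FICZ without Jag1 was compared between TGFβ/IL-34/FICZ and TGFβ/IL-34. No member passed, against 0.0229% of all genes (3), and 3 members had an unadjusted p under 0.05, against 17.4% of all genes: Ciita, H2-DMb2 and H2-Ob. Of the 10, 8 were below 0, with a median of −0.42. The replicates with FICZ did not agree: Ciita was 3.59-fold higher in replicate 2, while H2-Oa was 3.20-fold and Cd74 1.92-fold higher in replicate 1. Within an experiment the result depends on where replicate 1 of TGFβ/IL-34 is placed, since its sample code says AA47 and the authors' sample file AA45. Set beside the AA47 sample with FICZ, all 10 members were lower with FICZ (median −0.81). Set beside the AA45 sample, 7 of 10 were lower (median −0.27), and Cd74, H2-DMb1 and H2-Oa were higher. Leaving out replicate 2 of TGFβ/IL-34/FICZ gave 3 members called (Ciita and H2-Ob lower, H2-Oa higher) and 5718 genes (43.7%), and leaving out replicate 1 gave no member or gene, under the assumption that the single sample left has the spread of the others.

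Jag1 added to TGFβ/IL-34 was tested next. All 10 members were above 0, with a median log2 fold change of 0.57 against −0.00 over all genes, but only H2-Ob rose by the test, and 2.64% of all genes rose. The unadjusted p was under 0.05 for 19.0% of all genes, and, beside H2-Ob, for H2-Eb1 (0.78 ± 0.295, adjusted p = 0.175), H2-DMb2 (0.70 ± 0.249, adjusted p = 0.144) and H2-Oa (1.09 ± 0.387, adjusted p = 0.144). H2-Eb1 and H2-Oa passed with both TGFβ/IL-34/FICZ samples left out (adjusted p = 0.0307 and 0.00261), where 8.09% of all genes rose. Leaving out either TGFβ/IL-34 sample lost the call of H2-Ob. Within AA48, 10 of 10 members were higher with Jag1 (median 0.94). Within AA47, 9 of 10 were higher (median 0.43). With replicate 1 of TGFβ/IL-34 set beside the AA45 sample instead, 6 of 10 were higher (median 0.17), and Cd74, Ciita, H2-DMa and H2-DMb1 were lower.

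Adding Jag1 and FICZ together to TGFβ/IL-34 lowered H2-Ab1 by the test, against 1.37% of all genes. Of the members, 9 were below 0, with a median of −0.79, and 7 had an unadjusted p under 0.05, against 17.8% of all genes. With both TGFβ/IL-34/FICZ samples left out, 7 fell (H2-Ab1, H2-Aa, H2-Eb1, Cd74, H2-DMa, H2-DMb1 and H2-Ob), against 4.90% of all genes. Leaving out either replicate of TGFβ/IL-34, or, of the samples with both agents, replicate 1 or 2, left none called, and without the third H2-Ob passed in place of H2-Ab1. With the replicate block 3 members fell (H2-Ab1, H2-DMa and H2-Ob), against 1.93% of all genes, although the numbers of these groups mark different experiments. Within AA47, 10 of 10 members were lower (median −1.02, and −1.04, also 10 of 10, with that replicate placed in AA45), and within AA48, 8 of 10 (median −0.33).

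Whether the FICZ change differed with Jag1 was tested as an interaction. None of the 10 passed, against 1.39% of all genes, and 5 had an unadjusted p under 0.05, against 18.8% of all genes: H2-Ab1, H2-Eb1, H2-DMa, H2-DMb1 and H2-Oa. The estimate for H2-Ab1 was −1.14 (95% interval −2.05 to −0.23, adjusted p = 0.199), and that for Ciita was 0.29 (−1.28 to 1.86). A larger FICZ change with Jag1 than without was therefore not shown for any member. Jag1 in the presence of FICZ also called none, against 2.02% of all genes, with 4 members (H2-Ab1, Cd74, H2-DMb1 and H2-Ob) and 23.2% of all genes at an unadjusted p under 0.05. Of the 10, 3 were above 0 and 7 below. Leaving out replicate 2 of TGFβ/IL-34/FICZ gave 7 calls in the interaction, where 41.9% of all genes were then called, and 6 for Jag1 with FICZ, where 44.4% were.

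TGFβ and IL-34 were absent from the Jag1 only sample, which has no replicate, so the p-values of this comparison hold only if its condition varies as much as the other groups, and the difference has no replicate check of its own. Under that assumption, 6 members were higher in TGFβ/IL-34/Jag1: H2-Ab1 (2.44 ± 0.366, adjusted p = 0.00216, a 5.44-fold difference), H2-Ob (2.08 ± 0.288, adjusted p = 0.00145), Cd74 (1.51 ± 0.451, adjusted p = 0.0451), H2-DMb1 (1.41 ± 0.281, adjusted p = 0.00800), H2-DMa (1.29 ± 0.292, adjusted p = 0.0140) and H2-DMb2 (1.10 ± 0.315, adjusted p = 0.0385). Of all genes, 7.51% were higher. In all 10 members the Jag1 only value lay below the 3 TGFβ/IL-34/Jag1 values, as it did in 36.7% of all genes. Cd74 missed the threshold whichever TGFβ/IL-34/Jag1 sample was left out (adjusted p = 0.0672 to 0.0823), and H2-DMb2 missed it with the replicate block (0.0744) and without replicate 2 or 3 of that group (0.0822 and 0.0827). With both TGFβ/IL-34/FICZ samples left out 9 passed, H2-Oa being the exception, against 15.4% of all genes. With only these 4 samples in the fit 3 passed (H2-Ab1, H2-DMb1 and H2-Ob), against 3.90%, and in AA45, where both conditions were made, 10 of 10 were higher (median 1.12). H2-Eb2, a nearby gene related to H2-Eb1, went the other way. It was at 1808 in Jag1 only and at 43.7 to 264 in the other 10 samples, so that the lone sample stood 6.84-fold above the next, and the log2 fold change was −3.63 ± 0.587 (adjusted p = 0.00309).

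Ratios between members within a sample do not depend on the scaling of samples, and several separated the groups (see the plot of ratios). The H2-Ab1 to H2-Aa ratio per kb was 2.46 ± 0.143 in TGFβ/IL-34/Jag1 and 1.69 ± 0.160 with FICZ (n = 3 each), 2.52 ± 0.00181 in TGFβ/IL-34 and 2.18 ± 0.00749 in TGFβ/IL-34/FICZ (n = 2 each), and 0.893 in Jag1 only. The ratio was thus lower in every FICZ sample than in any sample with TGFβ and IL-34 alone or with Jag1. The H2-Eb1 to H2-Ab1 ratio was 1.92 in Jag1 only and 0.592 to 0.863 in the other samples. The chains relative to Cd74 were at 1.18 ± 0.0221 in TGFβ/IL-34/Jag1, above 0.838 ± 0.0110 in TGFβ/IL-34, 0.793 ± 0.0735 in TGFβ/IL-34/Jag1/FICZ and 0.585 ± 0.108 in TGFβ/IL-34/FICZ, and at 1.13 in Jag1 only. H2-DMb2 to H2-DMb1 was at 1.37 to 2.00 in the 7 samples with Jag1, whether or not FICZ was present, and at 0.638 to 1.04 in the 4 without. These are the near-identical β genes whose reads may be divided, and Jag1 cannot be told apart here from the presence of OP9 cells. H2-DMa to H2-Ob was lowest in TGFβ/IL-34/Jag1 (2.68 ± 0.394), 5.44 ± 0.473 with FICZ, 4.92 ± 0.375 in TGFβ/IL-34 and highest in TGFβ/IL-34/FICZ (13.5 ± 5.15). The ratio of all H2-M to all H2-O genes gave another order of groups. It was 7.73 ± 0.259 in TGFβ/IL-34, 6.55 ± 2.82 in TGFβ/IL-34/FICZ and 5.99 ± 0.744 in TGFβ/IL-34/Jag1/FICZ. In TGFβ/IL-34/Jag1 it was 4.61 ± 0.508, and in Jag1 only it was 3.71. The length used changes the value of a ratio of 2 genes but not the order of samples.

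**Figure D4:**
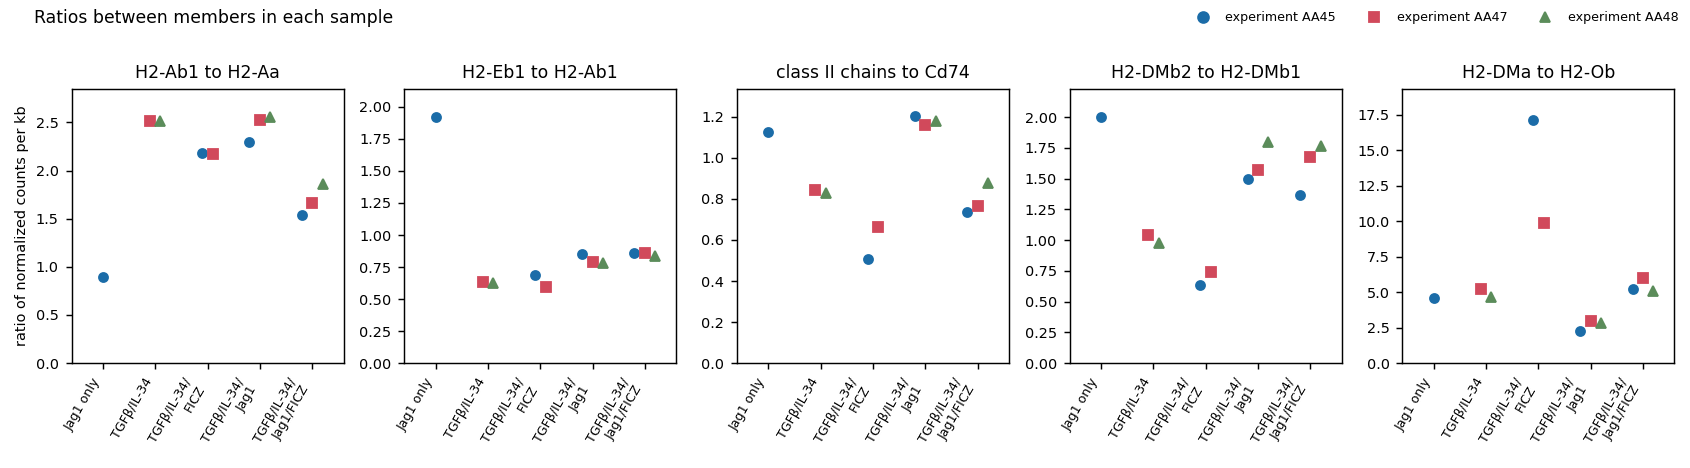
Ratios of normalized counts per kb of merged exon length between members in each of 11 samples, by group (axes from 0), with symbols for the experiment. The H2-DMb2 to H2-DMb1 ratio is at 1.37 or above in every sample with Jag1 and at 1.04 or below in every sample without it, and Jag1 only has the lowest H2-Ab1 to H2-Aa ratio (0.893). Jag1 cannot be told apart from the presence of OP9 cells.

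Other genes of the pathway were counted by list. Of the 7 factors that bind the X and Y boxes and CRE-like element (Rfx5, Rfxap, Rfxank, Nfya, Nfyb, Nfyc and Creb1), none passed for FICZ with Jag1 or for Jag1 without FICZ, and their medians were −0.05 and 0.21. Of 11 regulators of Ciita, 2 rose and 1 fell with FICZ under Jag1, where 10.9% of all genes rose and 6.71% fell. Irf1, an interferon-induced activator, rose by 1.39 ± 0.205 (adjusted p = 0.00120) and Socs1, a brake on cytokine signaling, by 0.89 ± 0.146 (adjusted p = 0.00213), while Irf4 fell (−0.72 ± 0.179, adjusted p = 0.0198). Irf1 was thus higher in the group in which Ciita was lower, and it was at 10106 in Jag1 only, where Ciita was at 6240. With Jag1 added to TGFβ/IL-34, where 2.64% of all genes rose and 3.96% fell, Prdm1, a repressor of Ciita, rose (0.99 ± 0.247, adjusted p = 0.0403) and Socs1 fell (−0.77 ± 0.163, adjusted p = 0.0190). Against Jag1 only, Spi1, Irf4 and Ifngr1 were higher in TGFβ/IL-34/Jag1, and Irf1 and Prdm1 were lower (7.51% and 9.34% of all genes), with Irf1 at −3.00 ± 0.290 (adjusted p = 0.000260).

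Of 9 proteases and related enzymes that cut the invariant chain or antigens, 2 fell and 1 rose with FICZ under Jag1, against 6.71% and 10.9% of all genes, and their median was −0.04. Ctsb, cathepsin B, fell by 1.16 (SE 0.141, adjusted p = 0.000434) and Ctss, cathepsin S, which removes the invariant chain in dendritic cells, by 0.68 (SE 0.173, adjusted p = 0.0209), while Lgmn, asparagine endopeptidase, rose by 1.26 (SE 0.222, adjusted p = 0.00322). With Jag1 added to TGFβ/IL-34 the directions of Ctsb (0.82 ± 0.158, adjusted p = 0.0128) and Lgmn (−1.04 ± 0.248, adjusted p = 0.0341) were the opposite, and Ctsl fell (−1.03 ± 0.153, adjusted p = 0.00332). Of the genes of class II turnover in the table (Marchf1 and Marchf8, ubiquitin ligases that remove class II from the surface, and Cd83), none of 3 passed in either comparison. Of 19 class I presentation genes, 4 fell with FICZ under Jag1 and none rose, with a median of 0.16: Nlrc5, the class I counterpart of Ciita (−1.03 ± 0.208, adjusted p = 0.00652), Tap1, H2-M3 and H2-M5. H2-M5 was at 22.7 to 179 in TGFβ/IL-34/Jag1 and at 0 to 1.87 with FICZ, and it was also the 1 class I gene that rose with Jag1 added to TGFβ/IL-34. B2m, the class I light chain, gave 0.20 ± 0.227 for FICZ with Jag1 (adjusted p = 0.631).

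Some markers of other cell types moved with these groups (see the plot of marker lists). For comparison, 2.64% of all genes rose with Jag1 added to TGFβ/IL-34. With FICZ under Jag1, 10.9% of all genes rose and 6.71% fell. Of 8 OP9 stroma genes, 7 were detected, Dcn being at 0 in all samples. Their summed value was 391 to 4630 in samples with Jag1 and 12.8 to 38.0 in those without, 5 of 7 rose with Jag1 added to TGFβ/IL-34 and 1 of 7, Pdgfrb, with FICZ under Jag1. Neutrophil progenitor genes summed to 4155 to 6934 in TGFβ/IL-34/Jag1/FICZ and 109 to 282 in TGFβ/IL-34/Jag1. Of these genes 4 of 6 rose, with Elane at a mean of 2946 against 4.68. Camp missed the threshold (means of 33.7 and 3.19). Mpo went the other way (3.95 and 6.52) and averaged at most 27.2 in any group, so the list did not move as a whole. Langerhans cell genes summed to 302563 to 310960 in TGFβ/IL-34/Jag1 and 53989 to 116320 with FICZ, and 3 of 5 fell (Cd207, Cldn1 and Mfge8). Mfge8 made most of this sum, with means of 266443 and 61353. Epcam and Cdh1 missed the threshold (adjusted p = 0.203 and 0.354), and Cdh1 averaged 15512 in TGFβ/IL-34 and 12815 in TGFβ/IL-34/Jag1. Of the maturing dendritic cell genes 1 of 8 rose (Ccl22, 0.90 ± 0.253, adjusted p = 0.0340), and of the cDC1 genes none of 5. The part of these shifts in the class II values was not tested.

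Cells other than the sorted ones that carry class II RNA were looked for among B cell and plasmacytoid dendritic cell genes. The B cell genes summed to at most 82.9 in any sample, with Pax5 at 0 in both TGFβ/IL-34/FICZ samples. Their sum was 16.5 to 43.5 in TGFβ/IL-34/Jag1 and 68.6 to 78.1 with FICZ. None of 3 tested passed the threshold with FICZ under Jag1. Their log2 fold changes were 2.20 for Cd79b, 0.40 for Cd22 and −0.34 for Ms4a1. Of the 5 plasmacytoid dendritic cell genes tested, 2 fell with FICZ under Jag1, against 6.71% of all genes. They were Siglech (adjusted p = 0.00116), at 30.0 to 161 in TGFβ/IL-34/Jag1 and 0 to 2.54 with FICZ, and Klk1 (adjusted p = 0.0102), at 31.3 to 60.7 and at most 4.2. The others tested missed the threshold, with log2 fold changes of −0.95 for Bst2, 0.17 for Tcf4 and 1.34 for Ccr9. The list thus did not move in a single direction. Bst2 made most of its sum, and Ly6d was at 0 in 4 of the 5 groups. The part of these genes in the class II values was not tested.

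**Figure D5:**
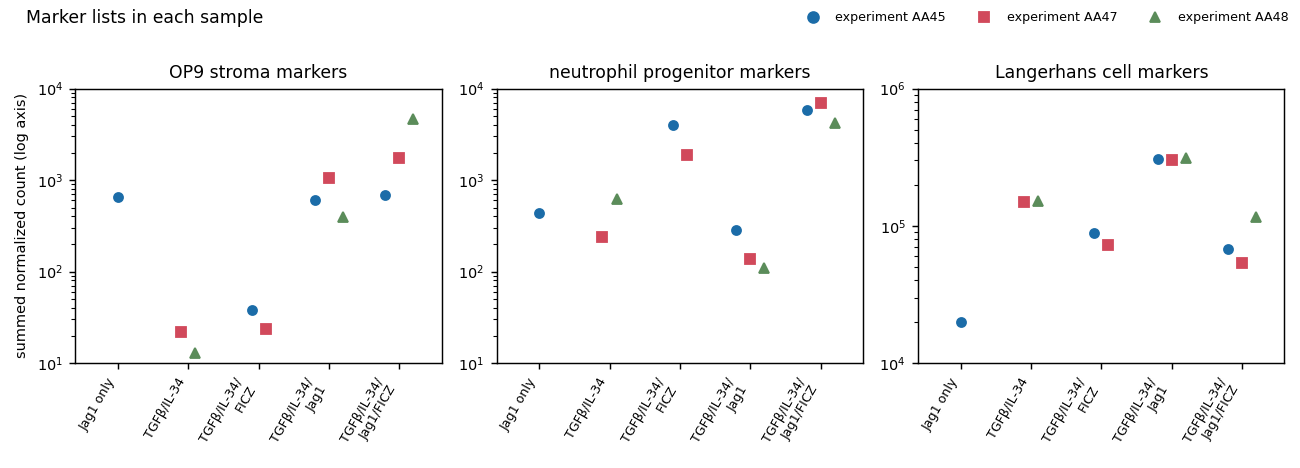
Summed normalized counts of 3 marker lists in each of 11 samples (log axes with different ranges), by group, with symbols for the experiment. The OP9 stroma sum is at or above 391 in every sample with Jag1 and at or below 38.0 in those without, the neutrophil progenitor sum is at or above 1882 in samples with FICZ and at or below 627 in those without, and the Langerhans cell sum is highest in TGFβ/IL-34/Jag1. Mfge8 makes most of the Langerhans cell sum in each group.

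The genes whose pattern over the 11 samples was most like that of the class II chains and Cd74 (Pearson r with their mean standardized log2 value, among 10904 genes) were Lgals3 (galectin-3, r = 0.981), Etfa (0.974), Camk1 (0.971), Peli2 (0.964) and Fads3 (0.963). Lgals3 averaged 53169 in TGFβ/IL-34/Jag1 and 15618 with FICZ, and 13150 in Jag1 only. Those most like Ciita were Ampd3 (0.984), Erc1 (0.975), Rnf150 (0.973), Ahr (0.966) and Ppfibp1 (0.965). Ahr, the receptor for FICZ, averaged 9437 in TGFβ/IL-34/Jag1, 5366 in TGFβ/IL-34, 3802 in TGFβ/IL-34/Jag1/FICZ, 2917 in Jag1 only and 2000 in TGFβ/IL-34/FICZ. Among the members, Ciita was closer to H2-Ob (r = 0.897) and H2-DMb2 (0.806) than to H2-Ab1 (0.590), Cd74 (0.210) or H2-Oa (0.164), and Cd74 was closest to H2-DMb1 (0.980). The low values of r for Ciita include TGFβ/IL-34/FICZ replicate 1. That sample had the lowest Ciita (2247) and the highest Cd74 (677490) of the 11, with H2-Oa at 3667. The values of r without it were not calculated. All of these values describe samples that share groups and experiments.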

How the data were processed

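The authors mapped reads with salmon to Ensembl transcripts (GRCm39), added them up per gene through tximport and normalized with DESeq2, whose size factors scale each library. The deposited values are thus a normalized signal per gene. Tool versions are not given in the sources used here. A second file gave conditions and experiment codes, and its code differed from the sample description in 1 sample, replicate 1 of TGFβ/IL-34.

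Whole reads could not be recovered from these values, so that no count model was run. Genes at 10 or more in at least 2 samples (13095 of 21860) were fitted as log2(value + 1) with limma 3.58.1 under R 4.3.3, by lmFit, contrasts.fit and eBayes with trend, using all 11 samples, 1 mean per group and no covariate (6 residual degrees of freedom). Fold changes are on the log2(value + 1) scale. Two-sided p-values were adjusted by the method of Benjamini and Hochberg over all genes tested, with a threshold of 0.05, in 7 contrasts. The script was tested on simulated data. With Jag1, same-numbered samples with and without FICZ carry the same experiment code and their deviations correlated (r = 0.153, 0.122 and 0.166), so these numbers pair the samples.

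The members and lists were chosen with earlier results of these data known. In each list, genes were named if they were among the 2 with the largest change in a direction among those called in a comparison, and Spi1, Ifngr1, Prdm1, Tap1, H2-M3, Mfge8 and B2m were named in addition after their values were seen. Genes of like pattern were the 5 with the highest r among 10904 genes with a mean of at least 50. The X and Y letters, the canonical lengths, the codes of the authors' file as a block or for differences within an experiment and the fits without both TGFβ/IL-34/FICZ samples were chosen after seeing the data. The ratios H2-Eb1 to H2-Ab1, H2-DMb2 to H2-DMb1 and H2-DMa to H2-Ob were added to those first planned. Coordinates are from GRCm39 and GENCODE vM39. Alternatives were quantile normalization, equal totals, other pseudocounts and filters, array weights, blocks of replicate number, experiment code or flow cell, the groups of a contrast alone and leaving out single samples.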

Additional observations from a re-analysis of the deposited data

How the results depend on the processing

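Over the alternatives run, no member changed direction for FICZ with Jag1 or for TGFβ and IL-34 with Jag1. For Jag1 without FICZ (1 member called), array weights gave 4, the groups of the contrast alone 2, leaving out both TGFβ/IL-34/FICZ samples 3 and single samples left out 0 to 1. For both agents together (1), quantile normalization gave 4, equal totals 2, no filter 0, array weights 8, the replicate block 3, the experiment code block 0 with either source of codes, the groups alone 8, leaving out both TGFβ/IL-34/FICZ samples 7 and single samples left out 0 to 1. For TGFβ and IL-34 (6), the groups alone gave 3 and single samples left out 4 to 6; the lone Jag1 only sample could not be left out. Single samples left out gave 0 to 3 for FICZ without Jag1 (0), 0 to 6 for Jag1 with FICZ (0), 0 to 7 for the interaction (0) and 5 to 8 for FICZ with Jag1 (7). The replicate block called 8 for FICZ with Jag1, adding Ciita, and 0 for Jag1 with FICZ. The count of all genes called moved in the same fits. For Jag1 without FICZ it was 864 as reported, 2627 with array weights and 2160 with both TGFβ/IL-34/FICZ samples left out. For both agents it was 587 as reported, 712 with quantile normalization, 503 with equal totals and 3558 with array weights. With the groups alone it was 2807 for both agents, and 1679 with both TGFβ/IL-34/FICZ samples left out. The cause of these shifts was not tested.

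Directions that reversed were of values that were not called. For Jag1 without FICZ, log2 fold changes were −0.084 (H2-Ab1), −0.12 (Cd74) and −0.092 (H2-DMb1) with quantile normalization, −0.040 (Cd74) and −0.071 (H2-DMb1) with equal totals and −0.027 (Cd74) and −0.047 (H2-DMb1) with the replicate block, and with single samples left out they ran from −0.077 to 0.18 (Cd74) and from −0.083 to 0.17 (H2-DMb1). For FICZ without Jag1, Cd74 was at 0.00 with quantile normalization, −0.14 with equal totals and −0.14 with the flow cell block, H2-Oa at −0.063 with the flow cell block and H2-DMb1 at 0.0064 with the codes of the authors' file. With single samples left out, Cd74 ran from −0.43 to 0.51, H2-DMb1 from −0.44 to 0.24 and H2-Oa from −0.50 to 1.18. For both agents, H2-Oa was at −0.00080 with the replicate block, −0.056 with the experiment code block and −0.20 with the flow cell block, and from −0.12 to 0.26 with single samples left out. For Jag1 with FICZ, H2-Aa was at 0.047 with quantile normalization, and with single samples left out H2-Eb1 ran from −0.66 to 0.059 and H2-Oa from −1.11 to 0.57. In the interaction, Ciita was at −0.27 with the experiment code block and from −0.64 to 1.21 with single samples left out.

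Counts over all genes moved more. With array weights, 4123 genes were called for FICZ with Jag1 (2312 in the fit as reported), 2627 for Jag1 without FICZ (864), 3558 for both agents (587), 4318 for TGFβ and IL-34 (2207), 8 in the interaction (182) and 0 for Jag1 with FICZ (264). Leaving out both TGFβ/IL-34/FICZ samples gave 4075, 2160, 1679 and 4326 for the first 4 of these. The groups of a contrast alone gave 3598 for FICZ with Jag1, 2807 for both agents, 1100 for TGFβ and IL-34 and 0 for Jag1 with FICZ, and in the interaction the experiment code block gave 44 and no filter 74. Leaving out replicate 2 of TGFβ/IL-34/FICZ gave 5718 for FICZ without Jag1 (3), 5820 for Jag1 with FICZ and 5488 in the interaction. Over single samples left out the counts ran from 1387 to 1821 for FICZ with Jag1, 195 to 714 for Jag1 without FICZ, 35 to 308 for both agents and 1641 to 2076 for TGFβ and IL-34, and the lowest were 54 for Jag1 with FICZ and 9 in the interaction. For FICZ without Jag1 all other alternatives gave at most 5. Equal totals moved the median of all genes by −0.18 for FICZ without Jag1, 0.16 for Jag1 with FICZ and 0.26 in the interaction, and quantile normalization by −0.10 in the interaction.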
